A study of Homo sapiens with 4 samples.

Results

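Immune checkpoint ligands are proteins that tumour cells display or release to restrain immune cells. The 8 genes examined here were chosen by name, and each was found once among the 48162 genes of the deposited expression table. They are CD274 (PD-L1), PDCD1LG2 (PD-L2), CD276 (B7-H3), VTCN1 (B7-H4), PVR (CD155), CD47, NT5E (CD73) and LGALS9 (galectin-9). Of these 8 genes, 6 had a mean of at least 1 FPKM (fragments scaled to gene length and to the library's fragments on genes) over all libraries and were tested, as were 12080 genes in all. LGALS9 fell just short of that level, and VTCN1 had no fragment in any library.

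MDA-MB-231, a human triple-negative breast cancer line, was treated for 24 h with MGH-CP1 at 10 µM, as the sample labels state, or with vehicle control. The study's methods give the same number for the dose with the unit mM. MGH-CP1 is an inhibitor of TEAD palmitoylation, and TEAD proteins are the DNA-binding partners of the co-activators YAP and TAZ. Each condition had 2 libraries of poly-A selected RNA, between 17577930 and 25508824 fragments on genes, and the deeper 2 were the vehicle control libraries. The labels name no immune cells in the cultures, so the receptors' side of each pair was not part of the design. It is not stated whether the libraries came from separate cultures, so the p-values measure the spread between these libraries only, and in bulk RNA fewer cells with a transcript and less of it per cell cannot be told apart.

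As background, CD274 and PDCD1LG2 encode the ligands of PD-1, a receptor that dampens activated T cells. CD276 and VTCN1 belong to the same B7 family. PVR is a nectin-like adhesion protein bound by TIGIT and CD96, which inhibit T and NK cells, and by CD226, which activates them. CD47 signals through SIRPα on macrophages to hold back phagocytosis. NT5E is a cell-surface enzyme that converts extracellular AMP to adenosine, which suppresses lymphocytes. LGALS9 is a sugar-binding lectin that interacts with TIM-3. In many tumour cells interferon-gamma induces CD274 through JAK and STAT proteins and the factor IRF1.

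The promoters of CD274 and PVR are shown because CD274 held the interferon-type motifs and PVR held the only TEAD motif found among the ligand promoters. The windows cover the 250 bases before the RefSeq start site in GRCh38.p14, 5′ to 3′ on the gene's strand, with motif matches in capitals. The CD274 window lies at chr9:5450292-5450541 and the PVR window at chr19:44643660-44643909, both on the plus strand.
CD274: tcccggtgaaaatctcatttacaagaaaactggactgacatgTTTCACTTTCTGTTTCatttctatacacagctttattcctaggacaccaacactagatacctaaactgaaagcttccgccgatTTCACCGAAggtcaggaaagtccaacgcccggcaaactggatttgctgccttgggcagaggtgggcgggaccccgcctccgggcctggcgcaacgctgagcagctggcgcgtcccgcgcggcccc
PVR: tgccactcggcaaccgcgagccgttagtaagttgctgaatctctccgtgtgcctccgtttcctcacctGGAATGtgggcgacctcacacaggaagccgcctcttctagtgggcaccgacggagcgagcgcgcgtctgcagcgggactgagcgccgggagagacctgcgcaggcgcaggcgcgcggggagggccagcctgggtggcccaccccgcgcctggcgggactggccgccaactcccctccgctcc

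Of the 8 genes, 7 had a promoter in the RefSeq table, with 2 start sites for CD276, and PDCD1LG2 had none. On both strands 5 motifs were searched in 35116 promoters. The TEAD core CATTCC occurred in 11.9% of all promoters, and among the ligands in PVR, in the reverse orientation at positions -182 to -177. The interferon-response-like motif, a pair of GAAA blocks with 2 bases between them, occurred in 3.02% of all promoters, and CD274 held 2 overlapping copies between -208 and -193. The STAT motif TTCNNNGAA occurred in 6.57% of all promoters, and CD274 held 1 copy at -125 to -117. The hypoxia-response core ACGTG occurred in 18.5% of all promoters, and CD276, in 1 of its 2 windows, and CD47 each held 1 copy. In a check of the bases after the start site against the gene's transcripts, CD47 alone had no match. The CD276 window with the motif was not checked in this way. The AP-1 motif TGANTCA, found in 6.57% of all promoters, matched none of these ligand windows. These matches are letters in a short window, and binding was not measured.

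The genes differed widely in level, and their order was the same in both conditions. NT5E was the most abundant, with a higher mean vehicle control FPKM than 97.2% of the genes tested, followed by PVR, CD276, CD47, CD274, PDCD1LG2, LGALS9 and VTCN1. NT5E exceeded CD274 by 21.4 and 21.5 times in the vehicle control libraries and by 31.0 and 25.9 times after MGH-CP1. In the vehicle control libraries no 2 neighbours in this order overlapped. After MGH-CP1, PDCD1LG2 and LGALS9 lay close together, and their exact 95% Poisson intervals, which cover counting error only, overlapped in both treated libraries, in MGH-CP1 replicate 2 from 1.10 to 1.86 FPKM for PDCD1LG2 and from 0.997 to 1.62 FPKM for LGALS9. The summed FPKM of the 8 genes was 255 and 246 with vehicle control and 238 and 243 after MGH-CP1, and NT5E made up most of it in each.

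**Figure D1:**
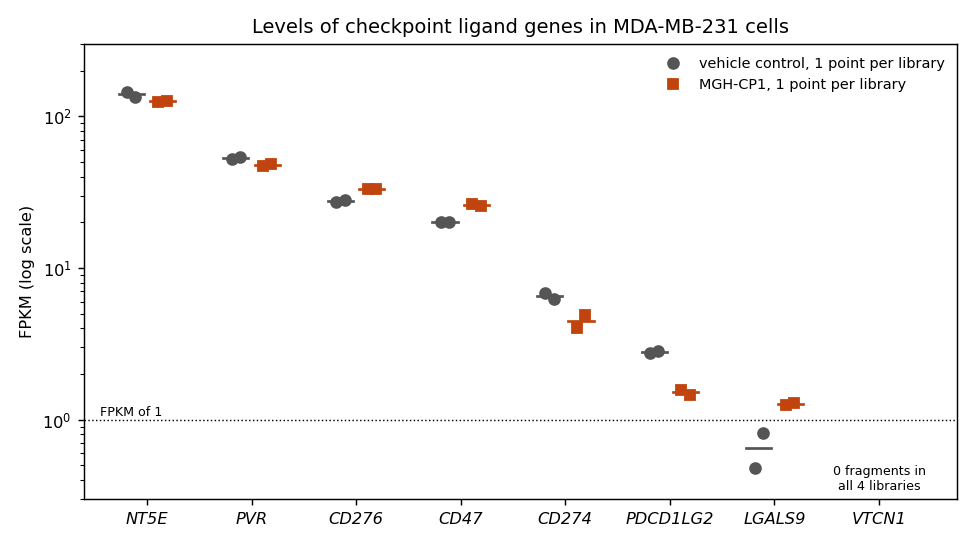
FPKM of the 8 ligand genes (log axis), with 1 point per library and the mean of 2 libraries as a bar, for vehicle control (circles) and MGH-CP1 (squares). CD274 and PDCD1LG2 lie lower after MGH-CP1, CD276, CD47 and LGALS9 lie higher, and VTCN1 had 0 fragments in all 4 libraries.

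After MGH-CP1 both PD-1 ligands fell, CD276 and CD47 rose, PVR fell by a small amount, a call that 6 of 15 other settings kept, and NT5E did not pass the test. At an adjusted p under 0.05 from limma, 2 of the 6 genes tested were called higher, against 27.1% of all genes tested, and 3 were called lower, against 23.8%. In either direction 5 of 6 were called, against 50.8%. The treated libraries were both above the controls for 2 genes, against 39.8% of all genes tested, and both below for the other 4, against 37.4%, so no group overlapped for any of the 6, against 77.2%. The median log2 fold change of the 6 genes was -0.14, and that of all genes tested was 0.01. A single gene with 2 libraries against 2 cannot reach a two-sided exact permutation p below 0.3333, and the calls therefore depend on limma's pooling of variance over genes.

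PDCD1LG2 (ENSG00000197646) had the largest change of the 6. Its FPKM was 2.74 and 2.82 with vehicle control and 1.58 and 1.44 after MGH-CP1. Both treated libraries were lower, and the groups did not overlap. The ratio of mean FPKM was 0.543, and on the log2(FPKM + 1) scale, which understates the change of low genes, the difference was -0.59 (standard error 0.10, adjusted p = 0.00207 from limma, n = 2 per group). A lower value was found for 3.92% of the genes tested. The gene had 165 and 170 fragments with vehicle control and 67 and 60 after MGH-CP1. With a pseudocount of 0.1 in place of 1 the difference was -0.84, and limma voom on the fragments gave -0.88.

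CD274 (ENSG00000120217), the other PD-1 ligand, moved the same way. Its FPKM was 6.81 and 6.24 with vehicle control and 4.04 and 4.90 after MGH-CP1. The treated libraries were both below the vehicle control libraries, although they differed from each other by more than the vehicle control pair. The ratio of means was 0.685, and the log2 difference was -0.46 (standard error 0.10, adjusted p = 0.00524 from limma, n = 2 per group). Without a filter on low values the adjusted p was 0.0684 from limma. The CD274 to PDCD1LG2 ratio of FPKM was 2.48 and 2.21 with vehicle control and 2.56 and 3.39 after MGH-CP1. Both treated ratios were above both control ratios, and the difference between the ligands' changes was not tested. Together the PD-1 ligands had 9.56 and 9.06 FPKM with vehicle control and 5.62 and 6.35 FPKM after MGH-CP1.

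CD274 and PDCD1LG2 are neighbours on the plus strand of chromosome 9. In the deposited coordinates, for which the submitters' processing notes name hg19, CD274 spans 5450503 to 5470566 and PDCD1LG2 spans 5510545 to 5571282, with 39979 bases between them. The nearest tested genes outside the pair were PLGRKT, with a log2 difference of -0.16 (adjusted p = 0.301 from limma), and KIAA1432, with -0.09 (adjusted p = 0.477 from limma). Neither passed the test, and whether their changes differ from those of the ligands was not tested.

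CD276 (ENSG00000103855), the B7-family member with the highest level, rose. Its FPKM was 27.2 and 27.9 with vehicle control and 33.01 and 33.4 after MGH-CP1. The replicates of each condition were close and the conditions were apart, with a ratio of means of 1.21 and a log2 difference of 0.26 (standard error 0.05, adjusted p = 0.00354 from limma, n = 2 per group). The ratio of CD276 to CD274 was 3.99 and 4.47 with vehicle control and 8.17 and 6.81 after MGH-CP1. The nearest tested gene before CD276, NPTN, also rose, by 0.23 (adjusted p = 0.00679 from limma), while LOXL1-AS1 on the other side fell by 0.30 on the log2 scale (adjusted p = 0.0136 from limma).

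VTCN1 (ENSG00000134258), the other B7-family member outside the PD-1 pair, had 0 fragments in each of the 4 libraries. A count of 0 allows up to 3 fragments, which is 0.0451 and 0.0450 FPKM with vehicle control and 0.0638 and 0.0653 FPKM after MGH-CP1. A transcript below those levels could have been missed at this depth, and no fold change was computed.

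CD47 (ENSG00000196776) had the smallest p of the 6 genes. Its FPKM was 20.2 and 20.1 with vehicle control and 26.5 and 25.7 after MGH-CP1. Both treated libraries were higher by more than the replicate spread, with a ratio of means of 1.29 and a log2 difference of 0.36 (standard error 0.05, adjusted p = 9.93e-04 from limma, n = 2 per group). CD47 spans 107762145 to 107809872 of chromosome 3 (hg19, minus strand), and the nearest genes tested, BBX and IFT57, had log2 differences of 0.12 and 0.05 and were not called. The ratio of CD47 to PVR was 0.388 and 0.375 with vehicle control and 0.566 and 0.525 after MGH-CP1.

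PVR (ENSG00000073008) was the second most abundant of these genes and changed little. Its FPKM was 52.1 and 53.7 with vehicle control and 46.8 and 48.8 after MGH-CP1. The treated libraries were lower without overlap, with a ratio of means of 0.904 and a log2 difference of -0.14 (standard error 0.05, adjusted p = 0.0443 from limma, n = 2 per group). The call was lost in 9 of 15 other settings, among them each of the 4 fits that left out 1 library, where the adjusted p from limma lay between 0.0559 and 0.212. CEACAM19 overlaps 6.61% of the PVR span on the same strand and CTB-171A8.1 overlaps all of it on the opposite strand. Both held few fragments, 72 to 79 and 24 to 39 per library against 2802 to 4558 for PVR.

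NT5E (ENSG00000135318) had 146 and 134 FPKM with vehicle control and 125 and 127 FPKM after MGH-CP1. Both treated values were below both vehicle control values, and the spread within vehicle control (SD 8.36 FPKM, n = 2) was wider than within MGH-CP1 (SD 1.41 FPKM, n = 2). The log2 difference was -0.15, with a 95% interval from -0.27 to -0.02, and it did not pass the adjusted threshold (adjusted p = 0.0511 from limma, n = 2 per group). The size depended on both vehicle control libraries: the difference was -0.09 without replicate 1 and -0.21 without replicate 2. The gene was called lower in 7 of the 15 other settings.

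LGALS9 (ENSG00000168961) had a mean of 0.956 FPKM over the 4 libraries and was not tested with the other genes. Its FPKM was 0.479 and 0.818 with vehicle control and 1.25 and 1.28 after MGH-CP1, from 38, 65, 70 and 70 fragments. Both treated libraries were higher, and the vehicle control replicates stood further apart than the treated ones. The ratio of means was 1.95. Without a filter on low values the log2 difference was 0.47 (adjusted p = 0.110 from limma), and limma voom on the fragments of genes with at least 10 in all, a setting chosen after the data were seen, gave 1.01 (standard error 0.27, adjusted p = 0.00564). LGALS9B and LGALS9C, close copies of LGALS9, held at most 3 and 0 fragments per library. AC015688.3 overlaps 55.6% of the LGALS9 span on the same strand and held 0 fragments, so the level of LGALS9 is uncertain where fragments shared by both genes were dropped.

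**Figure D2:**
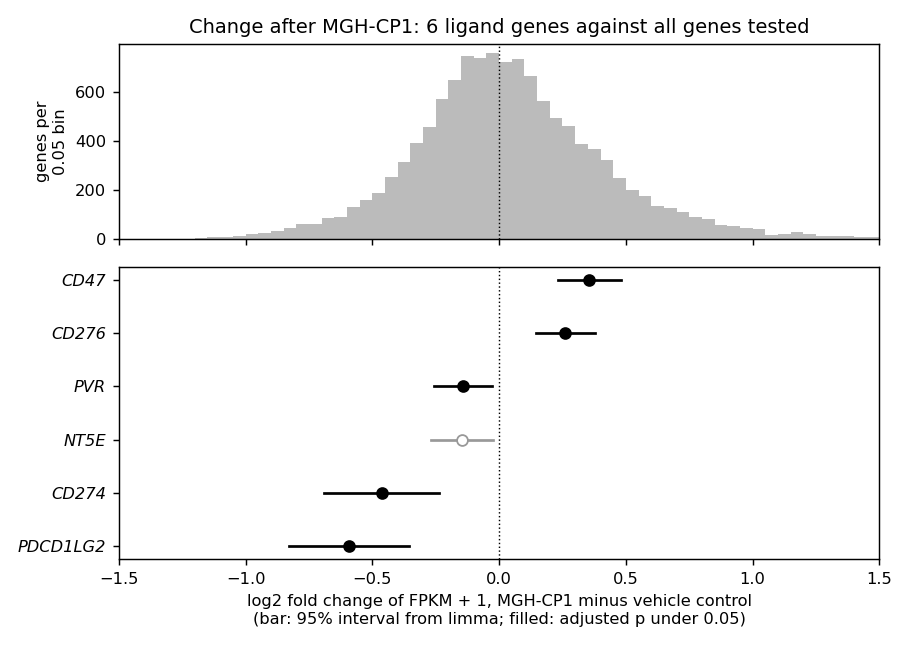
Upper panel: number of genes tested in bins of 0.05 of the log2 fold change of FPKM + 1, MGH-CP1 minus vehicle control, with 37 genes beyond 1.5 either way outside the axis. Lower panel: the 6 ligand genes tested, with points for the fitted change, bars for the 95% interval from limma and filled points for an adjusted p under 0.05, with PDCD1LG2 at -0.59 and CD47 at 0.36 at the ends.

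Of the other ligands that tumour cells can show to immune cells and that could be tested, most rose. Of 34 genes listed, 33 were in the table and 18 were tested, and the others lay under 1 FPKM. Of the 18, 14 were called higher and 2 lower, against 27.1% and 23.8% of all genes tested, with a median log2 difference of 0.45 against 0.01. The list was chosen with earlier results of these data known. The related butyrophilin genes BTN2A1, BTN2A2, BTN3A1, BTN3A2 and BTN3A3 were among the 14 called higher. All of them but BTN3A3 were named after their values were seen. BTNL9, also listed, was at 0 in every library. The largest rises were those of TNFRSF14, the HVEM ligand of BTLA, at 1.21 (adjusted p = 4.3e-05 from limma), TNFSF10, the death ligand TRAIL, at 0.77, and BTN3A3, a butyrophilin, at 0.75. TNFRSF14 had 2.39 and 2.77 FPKM with vehicle control and 7.13 and 7.46 FPKM after MGH-CP1. The falls were those of TNFSF9, the ligand of 4-1BB, by 0.33 and of HMGB1, a chromatin protein that can be released as a danger signal, by 0.29 on the log2 scale. Genes named next were chosen after their values were seen. In the B7 family, ICOSLG rose by 0.32 and C10orf54, which encodes VISTA, by 0.43, whereas CD80, CD86 and HHLA2 were at 0 in every library. The nectins PVRL2 and PVRL3, relatives of PVR, had log2 differences of 0.11 and -0.14 and did not pass the test.

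Among 13 genes, the other galectins and LGALS3BP, whose product binds galectin-3, 5 were tested, and 4 of these rose and none fell, against 27.1% and 23.8% of all genes tested. LGALS12 rose by 0.96, LGALS3 by 0.66 and LGALS1 by 0.46, each with an adjusted p of at most 4.02e-04 from limma. LGALS1 and LGALS3 were also counted among the other ligands. Of 11 ligands of NK cell receptors 5 were tested. Of these, 2, RAET1G, at 0.93, and ULBP2, at 0.21, rose and 0 fell, against 27.1% and 23.8% of all genes tested. RAET1G held few fragments, 41 and 36 with vehicle control and 85 and 55 after MGH-CP1. Without a filter on low values 0 of the NK ligands were called higher. MICA, with a log2 difference of 0.01, and MICB, with -0.07, were the most abundant of that list and did not pass the test, and both were named after their values were seen.

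Of 17 genes of extracellular nucleotide and adenosine handling, which act beside NT5E, 8 were tested, with 3 higher and 3 lower, against 27.1% and 23.8% of all genes tested. ENPP1, which cleaves nucleotide triphosphates, rose by 0.84, from 19.6 and 17.6 FPKM to 35.3 and 32.6 FPKM. ENTPD3, an ectonucleotidase, rose by 0.66, from 153 and 106 fragments with vehicle control and 208 and 139 after MGH-CP1. The nucleoside transporter gene SLC29A2 rose by 0.43. ENTPD1, of the same gene family as ENTPD3, lay under the filter and was not tested. Its FPKM was 1.14 and 1.00 with vehicle control and 0.742 and 0.719 after MGH-CP1, and it was named after its values were seen. Without a filter on low values 1 gene of this list was called higher in place of 3. Adenosine kinase, ADK, fell by 0.46, the transporter gene SLC29A1 by 0.28 and the adenosine receptor gene ADORA2B by 0.23 on the log2 scale.

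The interferon-gamma signalling genes were called higher in 8 of 14 tested and lower in 2, against 27.1% and 23.8% of all genes tested, with a median log2 difference of 0.23. STAT2 rose by 0.93, NLRC5, the transactivator of MHC class I genes, by 0.54 and the receptor gene IFNGR1 by 0.45. PTPN2, a phosphatase that restrains JAK and STAT signalling, fell by 0.51 on the log2 scale. IRF1, named after its value was seen, rose by 0.43 (adjusted p = 6.71e-04 from limma), while CD274 fell in the same libraries.

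Of 11 other genes known to act on CD274 transcription all were tested, with 3 higher and 5 lower, against 27.1% and 23.8% of all genes tested. FOSL1, an AP-1 subunit, fell by 0.62 and EGFR by 0.46 on the log2 scale. MAPK3, which encodes the kinase ERK1, rose by 0.35, and the hypoxia factor genes HIF1A and EPAS1 rose by 0.30 and 0.26. Of 17 genes that act on the PD-L1 protein, 3 were higher, 4 lower and 10 not called, which is no more than the 27.1% and near the 23.8% of all genes tested. The glycosyltransferase gene B3GNT3 rose by 0.61, HIP1R, whose product targets PD-L1 to lysosomes, by 0.51 and the deubiquitinase gene OTUB1 by 0.18. STT3A, an oligosaccharyltransferase subunit, fell by 0.30, the ubiquitin ligase scaffold CUL3 by 0.28 and the deubiquitinase gene USP22 by 0.22. CMTM6, which keeps PD-L1 at the cell surface and was named after its value was seen, had a log2 difference of 0.03 (adjusted p = 0.683 from limma).

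Among 12 partners and modifiers of CD47, 7 were tested, with 2 higher and 1 lower, against 27.1% and 23.8% of all genes tested. THBS1, the secreted CD47 ligand thrombospondin-1, fell by 0.83 on the log2 scale, from 190 and 185 FPKM to 94.0 and 117 FPKM. LRP1 rose by 0.57 and CALR, the calreticulin gene whose surface product promotes engulfment, by 0.21. QPCTL, the enzyme that modifies the CD47 end recognised by SIRPα, had a log2 difference of 0.16 and did not pass the test, and was named after its value was seen.

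**Figure D3:**
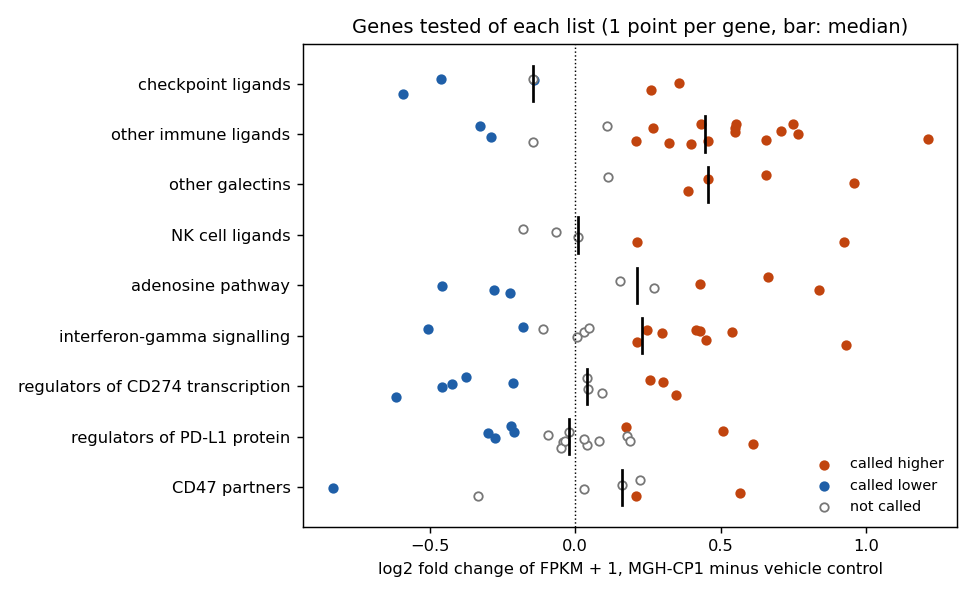
Log2 fold change of FPKM + 1, MGH-CP1 minus vehicle control, for each gene tested of the ligand set and 8 related lists, with 1 point per gene, coloured where the adjusted p from limma was under 0.05, and a bar at the list's median. The other immune ligands lie mostly above 0, with 14 of 18 called higher, whereas the checkpoint ligands spread to both sides. The lists were chosen with earlier results of these data known.

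Most of the listed receptors for these ligands were low. Of 14 receptor genes 1, SIRPA, reached a mean of 1 FPKM, with a log2 difference of -0.33 (adjusted p = 0.0793 from limma), and 4, PDCD1 among them, were at 0 in all libraries. ADORA2B, counted with the adenosine genes, was an exception among receptors, at 38.1 to 46.7 FPKM. Of 6 markers of this mesenchymal-like line, VIM, CD44 and MSN lay at 259 to 281, 198 to 221 and 334 to 341 FPKM. These 3 were not called. The other 3, AXL, CAV1 and EGFR, fell by 0.76, 0.49 and 0.46 on the log2 scale, with 23.8% of all genes tested called lower. Of 8 luminal or epithelial markers, ESR1 and PGR were at no more than 0.0243 FPKM, and CDH1 and FOXA1 at no more than 0.638 FPKM. KRT8, at 291 to 341 FPKM, and KRT18, at 86.8 to 115 FPKM, were abundant and fell by 0.18 and 0.35. GATA3 lay at 4.17 to 5.65 FPKM and EPCAM at 12.4 to 16.4 FPKM. Of 12 leukocyte markers CD3D, CD3E and CD2 were at 0 and PTPRC at no more than 0.0321 FPKM in any library. The summed level of the 12 was nonetheless 3.32 to 3.96 FPKM with vehicle control and 7.32 to 8.22 FPKM after MGH-CP1, from CD14, CSF1R and LYZ, of which CD14 rose by 0.59 and CSF1R by 0.76. The summed endothelial markers lay at 0.940 to 1.55 FPKM and the fibroblast markers at 1.45 to 1.95 FPKM over the 4 libraries. CYR61, CTGF and ANKRD1, targets of TEAD and YAP, fell by 0.75, 0.66 and 0.66 on the log2 scale. Mitochondrial transcripts took 0.418% and 0.447% of the fragments with vehicle control and 1.53% and 1.57% after MGH-CP1, and with these left out of the library totals CD274 differed by -0.45, CD47 by 0.37 and PVR by -0.13 on the log2 scale, and PVR lost its call (adjusted p = 0.0663 from limma). The part of the leukocyte marker genes was not tested.

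**Figure D4:**
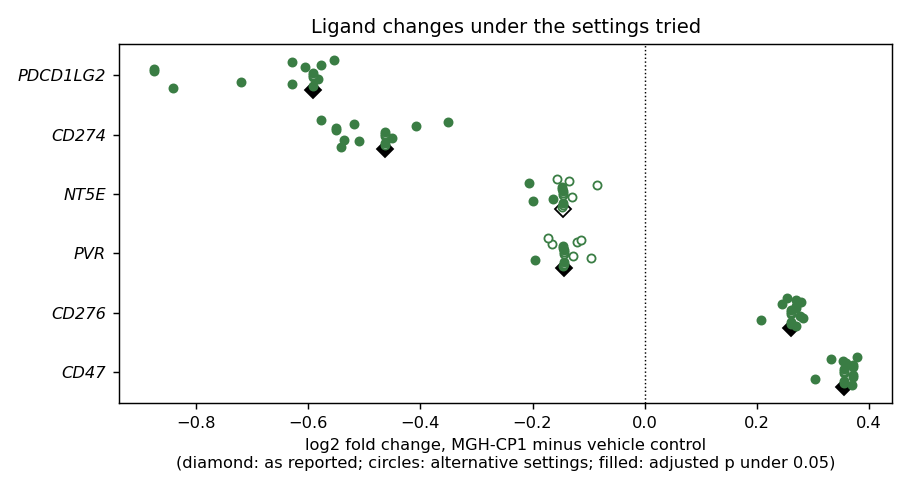
Log2 fold change, MGH-CP1 minus vehicle control, of the 6 ligand genes tested under each setting tried, with a diamond for the value as reported, circles for alternatives and filled symbols for an adjusted p under 0.05. No gene changed sign, and open symbols are most frequent for PVR and NT5E.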

How the data were processed

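The analysis used 4 RNA-seq libraries of MDA-MB-231, 2 with vehicle control and 2 with MGH-CP1. The authors deposited FPKM for 48162 genes with gene lengths and coordinates. The submitters' processing notes name CASAVA 1.8, STAR and hg19, and the counting tool and strand setting are not given in the sources used here. FPKM times gene length came out as whole fragments for 100% of the values (tolerance 0.001 of a fragment), which gave back the fragments, 17577930 to 25508824 per library.

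Genes with a mean of at least 1 FPKM were tested on log2(FPKM + 1) with limma 3.58.1 in R 4.3.3 (eBayes with a trend, two-sided, Benjamini-Hochberg over 12080 genes, threshold 0.05), with 5.97 prior degrees of freedom. The script was tested on simulated data. Alternatives were a pseudocount of 0.1, other filters and scalings, library totals without mitochondrial genes, models without the trend or shared variance, a replicate block, limma voom, and leaving out each library.

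The members and lists were chosen with earlier results of these data known. Named genes are the 8 ligands, up to 3 of the largest rises and falls called in each list, and genes overlapping or next to a ligand. A few genes counted in the lists are not reported here by name.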

Additional observations from a re-analysis of the deposited data

How the results depend on the processing

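Of 91 comparisons of a ligand's log2 difference with its reported value under another setting, none reversed. Of the counts of calls, the test without shared variance called 0 ligands and 0 related genes in either direction after adjustment and 13 of all genes, where limma called 6142. At an unadjusted p under 0.05 it called 2 ligands higher and 1 lower, with 31 and 20 related genes, where limma called 2, 3, 38 and 22 after adjustment. Without a filter on low values 1 ligand, PDCD1LG2, was called lower in place of 3. With 24878 genes tested in that fit, 1844 were called lower in place of 2869, and the adjusted p was 0.0684 for CD274 and 0.0904 for PVR from limma. With each library left out in turn, 2 ligands were called higher every time and 2 or 3 lower, and the related genes gave 32 to 36 higher and 18 to 21 lower. In those fits the lone library of a condition is assumed to vary like the others. Over all other settings the log2 difference ranged from -0.88 to -0.55 for PDCD1LG2, -0.58 to -0.35 for CD274, -0.20 to -0.10 for PVR, 0.21 to 0.28 for CD276 and 0.30 to 0.38 for CD47. The cause of these moves was not tested.

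The replicate number as a block gave 2 ligands called higher and 4 lower, with NT5E added (adjusted p = 0.0314 from limma). The numbers were not taken to pair the libraries, since only 2 pairs exist and the deviations of replicate 1 in the conditions had a correlation of 0.08 over genes. Few fragments limit PDCD1LG2 and LGALS9 most, and the unstated handling of overlapping genes limits LGALS9 and PVR.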

Other observations

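Some genes with values near 0 overlapped other gene models. IRF9, a partner of STAT2 in interferon signalling, lies entirely within RNF31 on the same strand and held 12 and 3 fragments with vehicle control and 15 and 17 after MGH-CP1, while RNF31 held 5, 4, 11 and 10. CD68, a lysosomal protein gene used as a macrophage marker, overlaps RP11-186B7.4 over 96.7% of its span and held at most 1 fragment in a library. Whether fragments on shared bases were dropped was not tested. VTCN1 overlaps no listed gene, so its count of 0 has no such neighbour.

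Next to PVR on chromosome 19, BCL3, an atypical IκB protein that binds NF-κB subunits, rose by 0.69 (adjusted p = 4.74e-05 from limma), from 27.3 and 28.5 FPKM to 46.2 and 44.8 FPKM. NFKB1, a subunit gene of NF-κB, fell by 0.38 on the log2 scale (adjusted p = 0.00135 from limma). KSR1, next to LGALS9, rose by 0.37 (adjusted p = 0.0226 from limma). TEAD4 fell by 0.59 and WWTR1, which encodes TAZ, rose by 0.57 on the log2 scale. TEAD4 and NFKB1 were named after their values were seen.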
